A study of Rattus norvegicus with 32 samples.

Results

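The 32 interferon-stimulated genes described here are transcripts that type I or type II interferon is known to induce, and 30 of them were measured in the mammary gland of virgin rats over the 4 days of the estrous cycle. The members are given by gene symbol, and each is read by the brightest of its probe sets (groups of short oligonucleotides that match a transcript) whose intensity reached 10 on each of the 31 arrays used. These 30 stand among 21068 probe sets that passed the same filter, or 11211 genes with 1 symbol. The probe set of Ifit1 lay below 10 on every rat, and for Xaf1 no probe set carries the symbol. RNA came from the mammary glands of Sprague-Dawley females with regular cycles, obtained as adult virgins and left without any treatment. The study's methods state that lymph nodes were removed. Each array is 1 rat killed at its own hour, counted from midnight of day 1 of the cycle, so no time point has a replicate. There were 8 rats on day 1, killed between 7 and 17.6 h, 8 on day 2, the day of estrus, between 31.6 and 43 h, 8 on day 3 between 57 and 67.1 h, and 7 on day 4 between 79.3 and 88.1 h. The 40 h array, which the study left out because its data looked corrupted, is left out of the main summaries and tests below unless it is named.

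Interferons are cytokines released when a cell senses viral nucleic acid or when lymphocytes are activated. Type I interferon drives a complex that holds STAT2 and IRF9 onto interferon-stimulated response elements, while interferon gamma acts at gamma-activated sites, and many target genes respond to both. In most tissues these genes run at a low tonic level between infections.

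Of the listed markers of gland tissue, 9 of 9 luminal epithelial, 5 of 5 basal epithelial and 7 of 8 adipocyte markers passed the filter. So did 21068 of all 31042 probe sets other than controls, so these counts alone do not identify the tissue. Array medians lay between 49.9 and 54.7. In whole gland, more cells that express a gene and more RNA per cell cannot be told apart. Lymphocyte markers differed widely between rats, although the study's methods state that the nodes were removed. Over the 8 of 16 listed lymphocyte markers that passed, the summed intensity of a rat lay between 265 and 509 on day 1, 273 and 358 on day 2, 260.2 and 2086 on day 3, and 253 and 3011 on day 4. Of the B cell markers on that list, Ms4a1 and Cd79b lay below 10 on some array.

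None of the 30 members passed a threshold for a change over the cycle in the tests below, although Irf1, Tap1, Ifi44 and Eif2ak2 each passed one under some alternative settings. Method 1, which takes the share of a log-expression profile's variance that a smooth spline over time accounts for (rho) and compares it with permuted time points, called 0 of 30 members at a false discovery rate of 0.25, beside 9.06% of all probe sets. The median rho was 0.210 over the members and 0.248 over all probe sets. Irf1, a transcription factor of the interferon response, had the highest member rho at 0.438 (adjusted p = 0.277 from Method 1), and Tap1, a transporter that brings peptides to MHC class I molecules, the next at 0.417 (adjusted p = 0.325 from Method 1). Both lie just under the lowest rho that was called, 0.447. Irf1 was called with quantile normalization, and without the rat of 7.5, 62.5, 65.6 or 82.5 h, and Tap1 without the rat of 41.6 or 80.9 h. In these settings Method 1 called 1 of 30 members and between 1226 and 2709 of all probe sets, beside 1908 in the main setting. Nothing is read from these calls.

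The cycle days were also compared with limma on log2 intensities, in a fit with 1 level per day and a slope over the clock hour, with an adjusted p under 0.05 over all 21068 probe sets for a call. Of the 30 members 0 passed for day 2 against day 1 (0.00475% of all probe sets passed), 0 for day 3 against day 2 (0.271%), 0 for day 4 against day 3 (0%), 0 for day 3 against day 1 (1.12%), 0 for day 4 against day 1 (0.0237%) and 0 for day 4 against day 2 (0.0427%). Among the 4 days together 0 members passed (0.574%). At an unadjusted p under 0.05 the members that passed numbered 0, 5, 0, 5, 3 and 2 in the 6 comparisons in that order, beside 5.78%, 12.7%, 5.79%, 13.8%, 6.47% and 7.48% of all probe sets, and 2 among the days, beside 10.9%.

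The member closest to the threshold was Eif2ak2, the kinase PKR that halts translation when it binds double-stranded RNA, and its values are listed for that reason. Its intensity in single rats spanned 149 to 269 around a median of 209.7 in the day 1 rats, 186 to 298 around 224 in those of day 2, 201 to 368 around 297 in those of day 3 and 186 to 279 around 265 in those of day 4. The ranges of all 4 days overlap, with the lowest rat at 13.2 h and the highest at 57 h. Day 3 lay 0.48 above day 1 on the log2 scale (limma, standard error 0.14, adjusted p = 0.0760), a difference that passed with array weights (adjusted p = 0.0313) and without the rat of 65.6 h (adjusted p = 0.0362). In the other 36 of 38 alternatives it did not pass, with adjusted p-values up to 0.181. Ifi44, an interferon-induced protein of the cytoplasm, spanned 192 to 382 around a median of 261 in the day 1 rats, 152 to 380.1 around 206 in those of day 2, 199 to 544 around 353 in those of day 3 and 254 to 442 around 301 in those of day 4. The day 2 and day 3 rats overlap, though 5 of the 8 on day 2 lie at 212 or below. Day 3 lay 0.67 above day 2 on the log2 scale (limma, standard error 0.19, adjusted p = 0.136), a difference that passed with array weights (adjusted p = 0.0308) and without the rat of 58 h (adjusted p = 0.0430). In the other 36 of 38 alternatives it did not pass either, with adjusted p-values up to 0.267.

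Although none passed, more members lay higher than lower on day 3 and day 4, a lean that for day 3 depended on single rats. The log2 difference of day 3 from day 1 was above 0 for 26 of 30 members (86.7%), beside 48.7% of all probe sets, with a median of 0.17 over the members and -0.005 over all. For day 3 against day 2 it was above 0 for 25 members (83.3%, beside 42.8%), with a median of 0.14, and for day 2 against day 1 for 18 (60%, beside 54.8%), with a median of 0.02. Day 4 lay above day 1 in 26 members (86.7%, beside 52.4%), above day 2 in 25 (83.3%, beside 47.2%) and above day 3 in 11 (36.7%, beside 54.0%). Without the rats of 57 and 65.6 h, day 3 lay above day 1 in 19 of 30 members (median 0.02) and above day 2 in 16 (median 0.01), and without the rat of 57 h alone in 22 and 18. Day 4 lay above day 3 in 26 members without both rats, in 25 without that of 57 h and in 20 without that of 85.3 h. Day 2 lay above day 1 in 11 without the rat of 17.6 h or that of 41.6 h. Over 38 alternatives the count ran from 19 to 28 for day 3 against day 1, from 16 to 26 for day 3 against day 2, from 23 to 27 for day 4 against day 1 and from 22 to 28 for day 4 against day 2. These counts are a description, since the comparisons share rats, and the members move together in single rats and are not separate observations. The share of all probe sets above 0 was computed in the main setting only, so the counts under alternatives stand without it. The member differences of day 3 from day 1 ran from -0.21 for Parp9 to 0.53 for Mx1, with standard errors from 0.06 to 0.35. That of Mx1 did not pass and ran from 0.02 to 0.79 over 38 alternatives.

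Over the members as a whole, the mean of the log2 values around each gene's own mean was -0.08 ± 0.15 on day 1 (SD, n = 8), -0.08 ± 0.13 on day 2 (SD, n = 8), 0.11 ± 0.33 on day 3 (SD, n = 8) and 0.05 ± 0.16 on day 4 (SD, n = 7). The days overlap. Day 3 lay 0.19 above both day 1 and day 2, and 0.04 above each of them without the rats of 57 and 65.6 h, when the mean of day 3 was -0.04 ± 0.17 (SD, n = 6). Leaving these rats out was chosen after their values were seen.

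**Figure D1:**
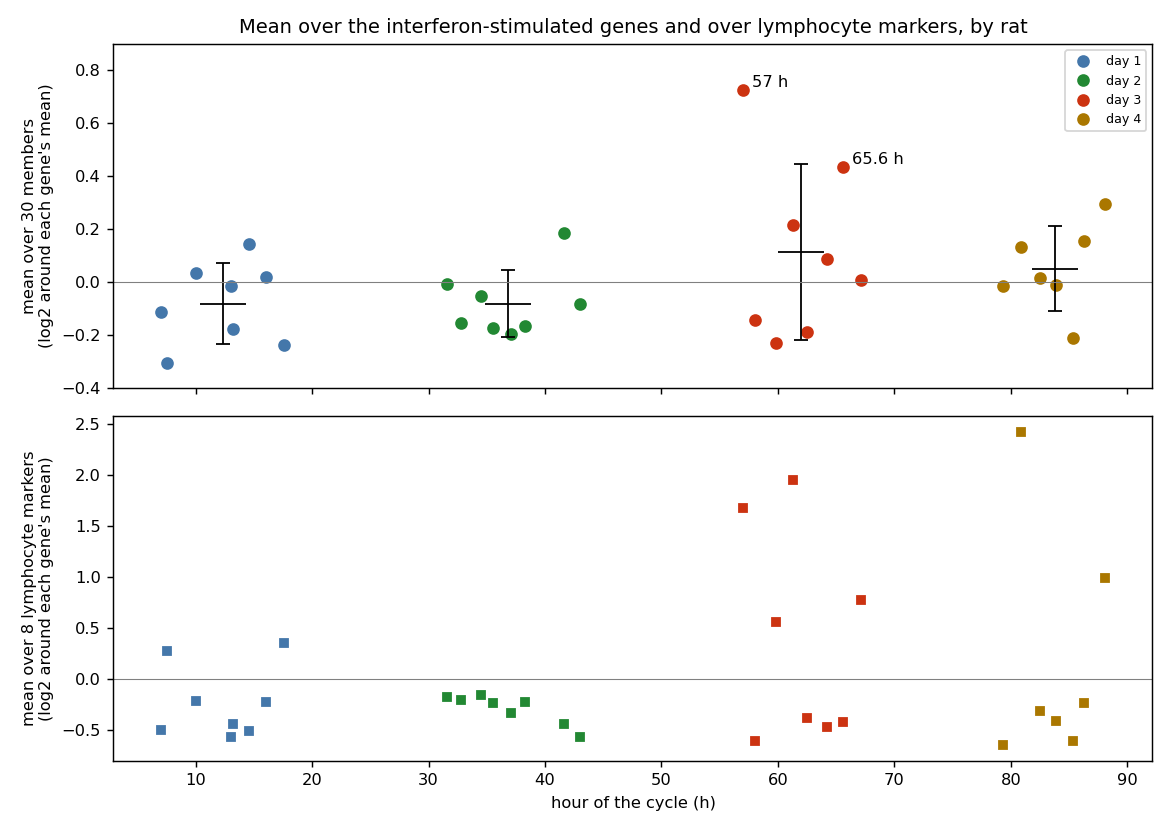
Upper panel: mean over the 30 measured interferon-stimulated genes of the log2 intensity around each gene's own mean, 1 point per rat, against the hour of the cycle, with the mean of each day as a black bar and its SD as whiskers. Lower panel: the same mean over 8 lymphocyte markers. The rats of 57 h (0.73) and 65.6 h (0.43) lie above the other 29 in the upper panel, and in the lower panel the rat of 57 h is high (1.68) while that of 65.6 h is not (-0.43).

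Single rats stood high across the members. The rat of 57 h had a mean over the members of 0.73, lay above the mean in 30 of 30 of them, was the highest of all 31 rats in 15 and among the highest 3 in 23. Of all probe sets only 2.26% had their highest value in that rat. In 23.3% of the members it lay more than 3 scaled median absolute deviations above the median over rats, beside 1.33% of all probe sets. The rat of 65.6 h followed with a mean of 0.43 and was the highest in 5 members and among the highest 3 in 12. It held the highest value for 3.70% of all probe sets. The rats of 88.1 h (0.30), 61.3 h (0.22) and 41.6 h (0.19) came next. At the lower end lay the rats of 7.5 h (-0.30), 17.6 h (-0.24) and 59.8 h (-0.23). By hour of the cycle, the last of these lies within 3 h of the highest rat. The 40 h array had a mean of 0.08, with 17 of 30 members above their mean.

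Markers of lymphocytes were high in the rat of 57 h and not in the rat of 65.6 h. Their mean around each gene's mean was 1.68 at 57 h, the third highest, after 2.42 at 80.9 h and 1.95 at 61.3 h, and -0.43 at 65.6 h. The rat of 80.9 h, with the most lymphocyte marker signal, had a member mean of 0.13, rank 8 of 31. The rats of 88.1, 61.3 and 41.6 h, next in member mean after 65.6 h, had lymphocyte marker means of 0.99, 1.95 and -0.44. Natural killer cell markers (5 of 6 measured) had a mean of 0.82 at 57 h and -0.20 at 65.6 h, and adipocyte markers their highest mean, 0.85, at 65.6 h against -0.60 at 57 h. Macrophage markers (12 of 13 listed symbols measured) lay at -0.27 at 57 h and 0.04 at 65.6 h, and skeletal muscle markers (3 of 7 measured), which span -5.53 to 2.87 over rats, at 2.21 and 0.21. Across the 31 rats the mean over the members had a Pearson r of 0.43 (Spearman rho 0.17) with lymphocyte markers, 0.40 (0.25) with natural killer cell markers and 0.03 (0.10) with macrophage markers, and without the rats of 57 and 65.6 h the r was 0.35, 0.30 and 0.20. The part of these cells in the high rats was not tested.

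Of the 5 members with the largest SD, 4 were antiviral effectors, the proteins that act against a virus, and the fifth was the chemokine Cxcl10. Antiviral effectors are also the largest group among the members, and others of them, such as Eif2ak2 (SD 0.32), varied less. The least variable members, Ifitm3, Psme1 and Ifi27, were also the brightest. Mx1, a dynamin-like GTPase that blocks viral replication, had the largest SD of all members, 0.72 on the log2 scale, higher than in 98.0% of all probe sets. It spanned 61.3 to 95.7 around a median of 89.3 in the day 1 rats, 44.7 to 186 around 75.1 in those of day 2, 48.4 to 458 around 101 in those of day 3 and 45.7 to 219 around 93.8 in those of day 4. The medians lie between 75.1 and 101, and the rat of 57 h stands at 458 with the next of all rats, that of 80.9 h, at 219. Rsad2 (viperin), an enzyme that makes a chain-terminating nucleotide, spanned 95.8 to 201 around a median of 133 in the day 1 rats, 76.1 to 157 around 104 in those of day 2, 65.6 to 432 around 153 in those of day 3 and 99.7 to 191 around 143 in those of day 4. The rats of 57 h (432) and 65.6 h (284) lie above all others, which reach 204, and the lowest of all rats is also on day 3, at 62.5 h.

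In Oas1a and Ifit3 the rat of 65.6 h, and not that of 57 h, was the highest. Oas1a, a synthetase of 2-5 oligoadenylates, which switch on an RNA-degrading enzyme, spanned 79.0 to 142 around a median of 107 in the day 1 rats, 78.0 to 181 around 112 in those of day 2, 73.0 to 290.3 around 147 in those of day 3 and 76.2 to 183 around 129 in those of day 4. Day 3 holds both the lowest and the highest rat. Ifit3, of a family that binds foreign RNA, spanned 20.7 to 39.9 around a median of 34.2 in the day 1 rats, 20.8 to 62.1 around 27.3 in those of day 2, 13.6 to 87.1 around 35.2 in those of day 3 and 21.8 to 46.9 around 28.97 in those of day 4. The rats of 65.6 h (87.1), 41.6 h (62.1) and 57 h (57.5) lead, and the days overlap. Its relatives on the list differed in range, since Ifit2 ran from 245 to 623 with the highest value at 57 h, and Oasl, a relative of Oas1a, from 50.7 to 125 with the highest value at 65.6 h.

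The antiviral effectors Bst2 and Ifitm3 were among the less variable members. Bst2 (tetherin), which holds budding virus on the cell, had an SD of 0.19 and ran from 952 to 1715, with the highest value at 79.3 h. Ifitm3, which blocks entry of virus, was the least variable member, with an SD of 0.11, lower than in all but 2.48% of the probe sets, and values from 6863 to 9284. Neither was highest at 57 or 65.6 h.

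Mx2, the relative of Mx1, was read by 2 probe sets that disagreed. The one used spanned 36.1 to 131 around a median of 49.6 in the day 1 rats, 42.6 to 176 around 50.2 in those of day 2, 45.3 to 234 around 73.6 in those of day 3 and 48.3 to 109 around 75.8 in those of day 4. The other was brighter in most rats, reached 1502 at 57 h and 1341 at 65.6 h, and was left out because it fell to 7.5 at 14.6 h and 9.2 at 41.6 h. It also stood at 12.3 at 10 h, and the 40 h array had 13.7. In the other 28 rats it lay between 190.5 and 1502. With the probe set used, the arrays of 10, 14.6, 41.6 and 40 h had 113, 131, 176 and 112, and of the other rats only those of 57 h (234) and 65.6 h (125) lay above 112. Over the 31 rats the Pearson r between both was -0.32 (Spearman rho -0.17). What differs in these rats was not tested, and the Mx2 values rest on 1 of these probe sets.

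**Figure D2:**
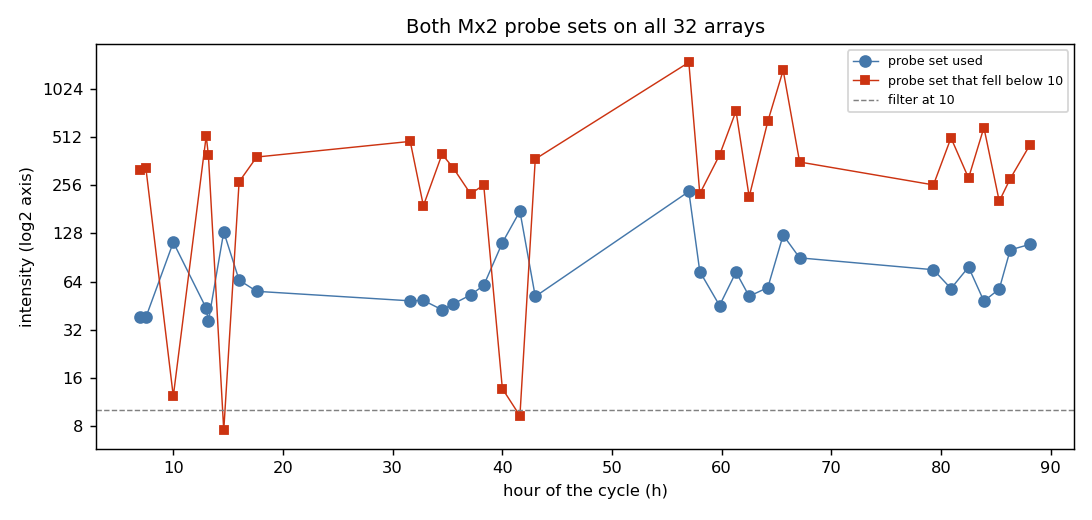
Intensity of both Mx2 probe sets on all 32 arrays against the hour of the cycle, on a log2 axis. The probe set left out by the filter falls to between 7.5 and 13.7 on the arrays of 10, 14.6, 40 and 41.6 h, where the probe set used stands at 113, 131, 112 and 176, and both are high at 57 h.

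The ubiquitin-like modifier Isg15, which is joined to proteins during the interferon response, followed the other members most closely. It spanned 108 to 215 around a median of 175 in the day 1 rats, 128 to 293 around 168 in those of day 2, 114 to 501 around 205 in those of day 3 and 146 to 286 around 208 in those of day 4. The rats of 57 h (501) and 65.6 h (404) stand apart from the third, at 41.6 h (293), and the other 6 rats of day 3 lie between 114 and 288. Usp18, the protease that removes Isg15 and damps the interferon receptor, spanned 108 to 187 around a median of 132 in the day 1 rats, 95.8 to 239 around 144 in those of day 2, 89.8 to 346 around 162 in those of day 3 and 87.2 to 266 around 132 in those of day 4. The same rats lead, at 346 and 276, followed by that of 88.1 h.

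The transcription factors varied less, except Irf7, which is itself induced and amplifies the response. Irf7 spanned 218 to 449.5 around a median of 323 in the day 1 rats, 220.2 to 467 around 347 in those of day 2, 264 to 707 around 432 in those of day 3 and 312 to 658 around 409 in those of day 4. The rats of 65.6 h (707), 88.1 h (658) and 57 h (637) lead, and all 4 ranges overlap. On the log2 scale it lay above day 1 by 0.43 on day 3 (limma, standard error 0.19, adjusted p = 0.292) and by 0.43 on day 4 (limma, standard error 0.19, adjusted p = 0.721). Irf9, the DNA-binding part of the type I complex, spanned 337 to 460.4 around a median of 373 in the day 1 rats, 347 to 475 around 378 in those of day 2, 368 to 584 around 448 in those of day 3 and 382 to 451 around 433 in those of day 4. Stat2, its partner, spanned 138 to 185 around a median of 175 in the day 1 rats, 147 to 183 around 168 in those of day 2, 148 to 238 around 195 in those of day 3 and 152 to 230.2 around 178 in those of day 4. Irf9 was highest at 57 h, with the next rat at 475, and Stat2 at 65.6 h, close to the rat of 64.2 h at 234. Irf1 spanned 450.4 to 599 around a median of 553 in the day 1 rats, 443 to 622 around 541 in those of day 2, 414 to 787 around 549 in those of day 3 and 537 to 692 around 600.3 in those of day 4, with the rat of 57 h at the top.

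Cxcl10, a chemokine that draws activated T cells and natural killer cells, had the third largest SD, 0.63. It spanned 13.6 to 48.5 around a median of 24.6 in the day 1 rats, 16.0 to 30.3 around 20.2 in those of day 2, 14.9 to 113 around 27.4 in those of day 3 and 19.8 to 46.7 around 24.99 in those of day 4. The rat of 57 h stands at 113, and the next, of 65.6 h, at 49.2, beside 48.5 at 16 h. The low end is close to the filter of 10.

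**Figure D3:**
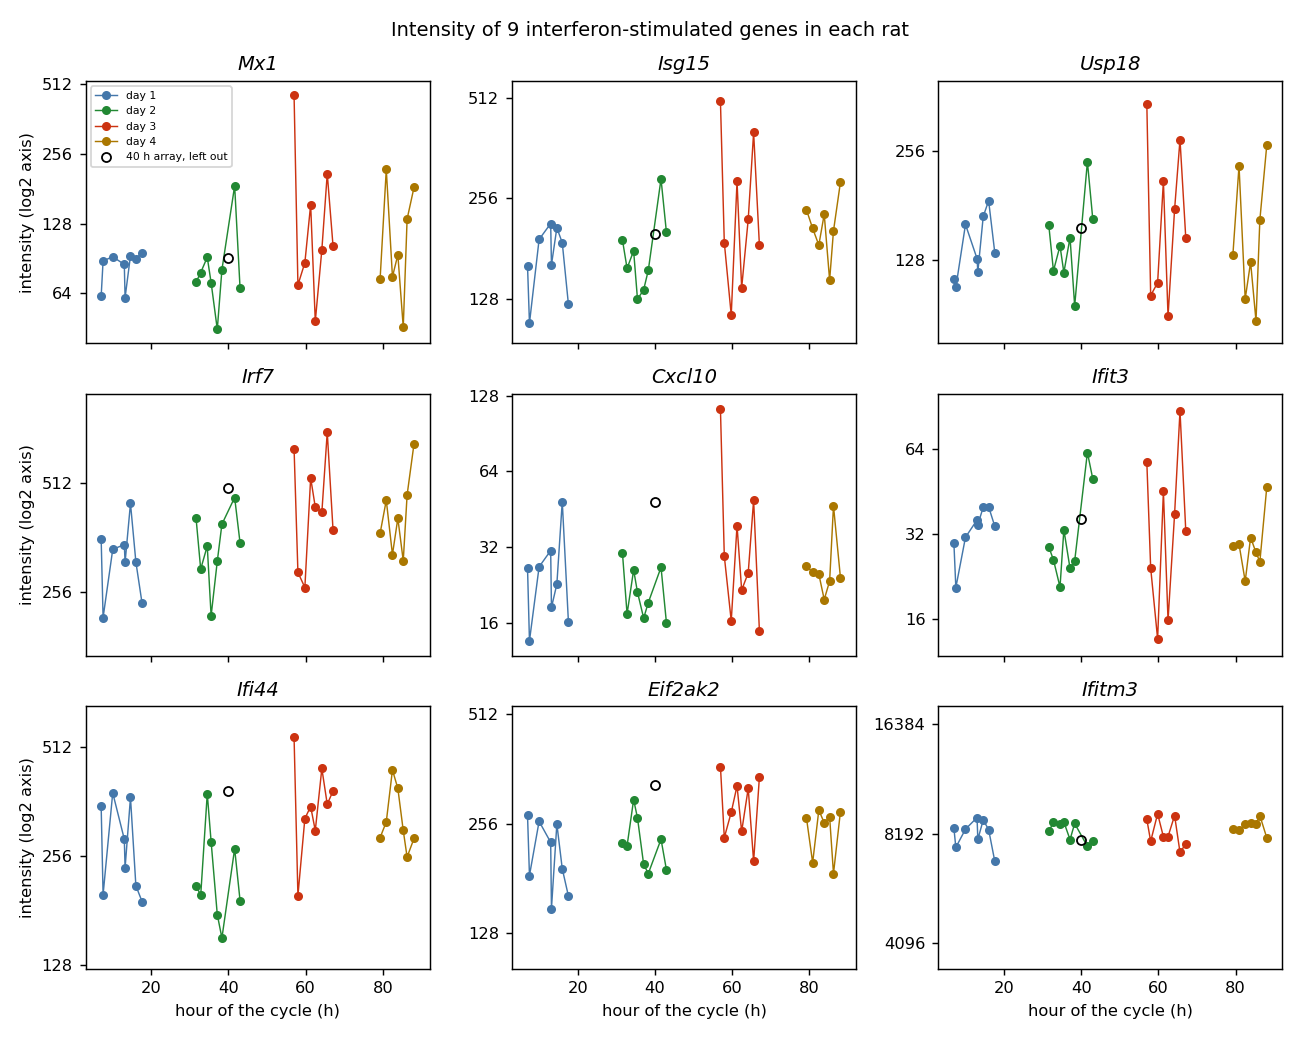
Intensity of 9 interferon-stimulated genes in each rat against the hour of the cycle, on log2 axes that differ between panels, with 1 filled point per rat, a line through the rats of each day and an open circle for the 40 h array left out. Mx1, Isg15, Usp18 and Cxcl10 peak at 57 h (458, 501, 346 and 113), Irf7 and Ifit3 at 65.6 h (707 and 87.1), and Ifitm3 stays between 6863 and 9284.

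Of the antigen-processing members, Psmb8 and Psmb9 are catalytic subunits of the immunoproteasome, Psme1 and Psme2 form its activator, and Tap1 carries the peptides. Psmb8 had the largest SD of this group, 0.36, with values from 509 to 1471, and was highest at 57 h. Tap1 ran from 183 to 374, also with its highest value at 57 h, where the next rat of day 3 had 280.1. Psmb9 (737 to 1398), Psme1 (4050.4 to 5793) and Psme2 (1213 to 1851) were highest at 61.3, 80.9 and 88.1 h. The mean over these 5 around each gene's mean was 0.38 in the rats of 57 and 88.1 h, 0.33 in that of 80.9 h and 0.10 in that of 65.6 h, beside 0.98 for the antiviral effectors at 57 h and 0.66 at 65.6 h. Of the others, Ifi35 (316 to 526) and Gbp2 (412 to 670.0), a guanylate-binding GTPase, were highest at 57 h, and Ifi27 (5656 to 7766), a mitochondrial protein, at 61.3 h. Ifih1, the cytoplasmic RNA sensor MDA5, ran from 37.8 to 73.6 and was highest at 31.6 h.

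Parp9 and Dtx3l were among the members that followed the rest least. Their proteins form a ubiquitin ligase complex of the interferon response, and Parp14 is an ADP-ribosyltransferase beside them. Parp9 ran from 586 to 1196 with its highest value at 34.5 h, Dtx3l from 397 to 756 with its highest value at 86.3 h, and Parp14 from 233 to 398, also with its highest value at 86.3 h. The array of 86.3 h holds the highest value for 12.4% of all probe sets, the largest share of any rat. The mean over these 3 around each gene's mean was 0.32 at 57 h and 0.11 at 65.6 h.

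Members were more alike across rats than a member and a gene outside the list. Over the 435 pairs of members the median Pearson r of log2 intensity across 31 rats was 0.345 (Spearman 0.293), beside a median of 0.020 between a member and the 21034 probe sets of no member. In 122 pairs, or 28.05%, r was above 0.5, beside 2.64%, and in 61 pairs it was below 0. The residuals of the fit with day and clock hour gave a median of 0.357, beside 0.028. Leaving out 1 rat, the median ran from 0.244 without the rat of 57 h to 0.366 without that of 62.5 h. Without the rats of 57 and 65.6 h it was 0.229, beside 0.027, with 76 pairs, or 17.5%, above 0.5, beside 3.41%. All pairs share the same 31 arrays and genes are not separate observations, so these are descriptions with no p.

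Isg15 had the highest r with the mean of the other members, 0.93, and 0.88 without the rats of 57 and 65.6 h. It was followed by Usp18 (0.85), Oas1a (0.84), Mx1 (0.83), Irf7 (0.83), Irf9 (0.83) and Rsad2 (0.83). At the other end stood Bst2 (0.14), Ifitm3 (0.07) and Parp9 (0.01). The closest pair of the main block was Oas1a and Usp18, with an r of 0.87 and the same Spearman rho, then Isg15 and Irf7 (0.85) and Mx1 and Usp18 (0.85).

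Beside this block stood smaller ones. The antigen-processing members had a median r of 0.57 among themselves over 10 pairs, led by Psmb9 with Psme2 (0.78), and a median of 0.18 with the antiviral effectors over 50 pairs. Ifi44 and Eif2ak2 had an r of 0.77, and these had the differences between days that were largest relative to their error. Parp9 and Dtx3l were the closest pair of all members, with an r of 0.89 and a Spearman rho of 0.90, and 0.90 without the rats of 57 and 65.6 h. Parp9 and Psme2 ran opposite, with an r of -0.68 (Spearman -0.68).

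Some of the closest pairs are neighbours in the genome. Parp9, Dtx3l and Parp14 lie side by side on chromosome 11 in the RefSeq gene table of the GRCr8 build, where Dtx3l is next to both, and Dtx3l had an r of 0.60 with Parp14. Mx1 and Mx2, with 1 protein-coding gene between them, had an r of 0.70 with the Mx2 probe set used, and 0.52 without the rats of 57 and 65.6 h. Psme1 and Psme2, also with 1 between them, had an r of 0.76, and 0.77 without these rats. Tap1 and Psmb9 are next to each other on chromosome 20 and had an r of 0.38, and Irf9 lies 1 gene away from Psme2 on chromosome 15 with an r of -0.006. Neighbours were found among the closest pairs and among pairs with an r near 0.

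**Figure D4:**
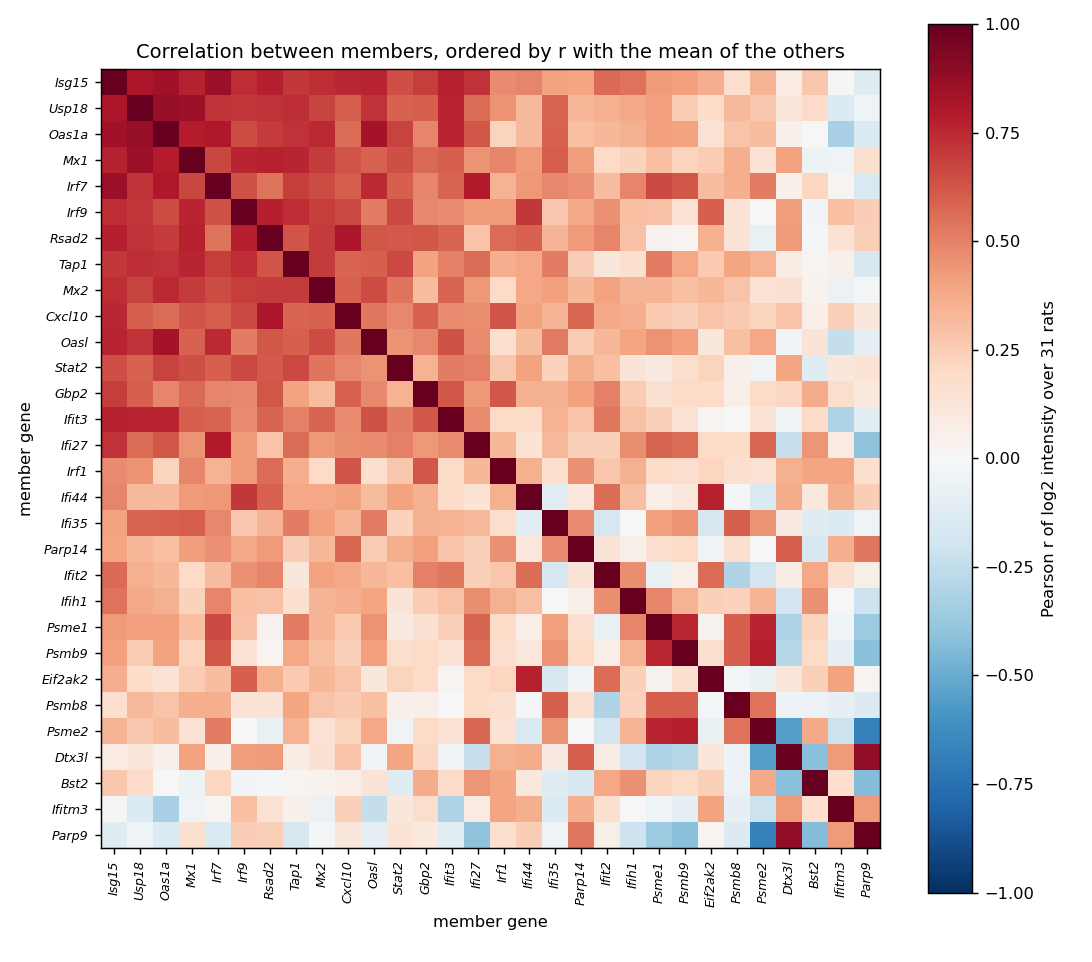
Pearson r of log2 intensity over 31 rats for each pair of the 30 measured members (colour, from -1 in blue to 1 in red), with genes ordered by their r with the mean of the other members. In the block from Isg15 to Tap1 every pair has an r above 0.5, the antigen-processing genes Psme1, Psmb9, Psmb8 and Psme2 form a second block, and Parp9 and Dtx3l (0.89) are blue against Psme2 (-0.68 and -0.55).

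RefSeq promoter windows of the GRCr8 build, 250 bases before to 50 after the start, were at hand for 27 of the 32 members, all but Isg15, Mx2, Ifit1, Ifit2 and Usp18. The core of the interferon-stimulated response element, taken as GAAA, any 2 bases and GAAA on either strand, occurred in 18 of 27 member windows (66.7%), beside 3.92% of all 33469 windows. The gamma-activated site, TTCNNNGAA, which reads the same on both strands, occurred in 7 of 27 (25.9%), beside 8.87%. Since the genes were listed as interferon-induced, these shares describe the list and test nothing. The 150 bases just before the start are shown for the 5 members with a window that followed the mean of the others most closely and the 3 that followed it least, with matches to either motif in capitals, where overlapping matches run together.
Oas1a (GRCr8 chr12:41330316-41330465, plus strand): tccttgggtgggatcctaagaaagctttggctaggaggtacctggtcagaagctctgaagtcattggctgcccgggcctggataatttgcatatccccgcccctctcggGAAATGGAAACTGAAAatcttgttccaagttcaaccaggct
Mx1 (GRCr8 chr11:50294607-50294756, minus strand): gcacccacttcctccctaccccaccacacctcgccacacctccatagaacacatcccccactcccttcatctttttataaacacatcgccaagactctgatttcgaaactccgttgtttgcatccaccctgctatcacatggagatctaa
Irf7 (GRCr8 chr1:205800024-205800173, minus strand): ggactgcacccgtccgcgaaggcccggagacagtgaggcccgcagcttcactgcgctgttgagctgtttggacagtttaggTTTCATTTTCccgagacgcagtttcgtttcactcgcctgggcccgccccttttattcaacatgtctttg
Irf9 (GRCr8 chr15:33065686-33065835, plus strand): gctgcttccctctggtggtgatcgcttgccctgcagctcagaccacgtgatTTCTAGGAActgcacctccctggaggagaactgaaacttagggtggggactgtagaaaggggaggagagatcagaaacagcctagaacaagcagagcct
Rsad2 (GRCr8 chr6:48788121-48788270, minus strand): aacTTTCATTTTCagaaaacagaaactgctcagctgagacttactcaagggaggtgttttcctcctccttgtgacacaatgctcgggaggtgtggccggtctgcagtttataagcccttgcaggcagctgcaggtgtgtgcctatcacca
Bst2 (GRCr8 chr16:18254968-18255117, minus strand): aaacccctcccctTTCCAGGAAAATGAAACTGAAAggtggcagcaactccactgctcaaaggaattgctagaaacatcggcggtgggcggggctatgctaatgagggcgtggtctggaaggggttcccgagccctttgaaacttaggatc
Ifitm3 (GRCr8 chr1:205541759-205541908, minus strand): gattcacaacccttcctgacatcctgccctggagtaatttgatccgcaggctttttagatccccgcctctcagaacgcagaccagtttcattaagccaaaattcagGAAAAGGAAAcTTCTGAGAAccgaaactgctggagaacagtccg
Parp9 (GRCr8 chr11:78319012-78319161, minus strand): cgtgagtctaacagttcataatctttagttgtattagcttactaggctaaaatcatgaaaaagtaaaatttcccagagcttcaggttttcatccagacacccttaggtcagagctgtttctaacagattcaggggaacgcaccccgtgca

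Matches were found at both ends of this order. Within the bases shown, among the closest, Oas1a, Irf7 and Rsad2 hold the response element core, Irf9 holds a gamma-activated site and Mx1 neither in these letters. Among the least coupled, Bst2 holds both, with 3 matches that overlap, Ifitm3 holds both, and Parp9 neither. Dtx3l has its only match just after the start. A match is a run of letters and not a bound site, and a window without one says nothing of elements farther away or of looser fit.

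Along the day, 0 members changed with the clock hour (1.96% of all probe sets did), and 0 had a slope that differed between the days (0.00475%). At an unadjusted p under 0.05 there were 3 members for the clock hour, beside 12.6% of all probe sets, and 0 for the difference of slopes, beside 3.56%. Per 10 h of the day the log2 slope was 0.70 for Ifit3 (limma, standard error 0.26, adjusted p = 0.216), 0.51 for Oas1a (limma, standard error 0.21, adjusted p = 0.266) and -0.28 for Irf1 (limma, standard error 0.10, adjusted p = 0.150). The slopes were above 0 for 17 of 30 members (56.7%), beside 54.6% of all probe sets.

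The genes upstream of the members were measured in part. Of 6 listed interferon genes 1 passed the filter, Ifnk, an interferon of epithelia, with values from 13.6 to 72.2, and 21.8 at 57 h and 18.1 at 65.6 h. No probe set carries Ifna1, Ifnl3 or Ifne as its only symbol, so these were not measured. The probe sets of Ifnb1 and Ifng lay below 10 on some array, and their values at 57 and 65.6 h are not given here. Of the receptor chains, Ifnar1 ran from 130.2 to 244 and stood at 213 at 57 h, Ifnar2 from 186 to 307 and at 245, Ifngr1 from 1701 to 3077 and at 2235, Ifngr2 from 418 to 582 and at 494, and Ifnlr1 from 93.4 to 199 and at 159. None of the 5 was highest at 57 or 65.6 h. The mean over 13 of 14 receptor and signalling genes had an r of 0.29 with the mean over the members (Spearman 0.22). It stood at 0.18 at 57 h, level with the highest rat, and at -0.11 at 65.6 h. In the limma comparisons 0 of the 13 passed, beside shares of all probe sets from 0% to 1.96%. Of 5 measured sensors, Dhx58, a relative of the RNA sensor RIG-I that is itself induced, had an r of 0.74 with the mean over the members (Spearman 0.45), and 0.52 without the rats of 57 and 65.6 h. It was highest at 57 h, at 259.6, and is named here after its values were seen.

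Interferon-induced genes outside the member list moved with it. The mean over 36 of 48 further induced genes had an r of 0.94 with the mean over the members (Spearman 0.92), and 0.93 without the rats of 57 and 65.6 h. Of these 36, 1 passed for day 3 against day 1, where 1.12% of all probe sets did, and 0 in the other limma comparisons, so that nothing is read from this count. It was Cmpk2, a mitochondrial nucleotide kinase, which spanned 53.5 to 91.3 around a median of 75.1 in the day 1 rats, 62.6 to 102 around 76.2 in those of day 2, 80.0 to 167 around 105 in those of day 3 and 84.8 to 117 around 95.9 in those of day 4. Above every rat of day 1 lay 1 of 8 rats on day 2, 6 of 8 on day 3 and 6 of 7 on day 4. Day 3 lay 0.53 above day 1 on the log2 scale (limma, standard error 0.13, adjusted p = 0.0426), a difference that no longer passed in 12 of 38 alternatives, with adjusted p-values from 0.0186 to 0.136 over all of them. Without the rat of 57 h it was 0.41 (adjusted p = 0.122), and a further probe set of Cmpk2 gave 0.37 (adjusted p = 0.228).

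The 10 genes outside the list whose log2 values were most like the mean over the members across 31 rats were Ifi44l (r of 0.85), Znfx1 (0.84), Gbp4 (0.82), Zbp1 (0.82), Oas1b (0.81), Parp12 (0.80), Rnf213 (0.80), Cmpk2 (0.80), Rtp4 (0.80) and Rig1 (0.79). Of these, 7 stood on the list of further induced genes. In 9 of the 10 the rat of 57 h was the highest, and in Oas1b that of 65.6 h, which follows from choosing them by a mean that is highest in these rats. Zbp1, a sensor of Z-form nucleic acid, had the widest range, from 22.3 to 157 with a median of 33.1, and its r was 0.64 without the rats of 57 and 65.6 h, while that of Znfx1, an RNA helicase that is also induced by interferon, was 0.82.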

How the data were processed

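Mammary gland RNA of 32 rats was measured, 1 rat to an Affymetrix Rat 230 2.0 chip. The deposited intensity is linear. The authors obtained it in GeneSpring by GC-RMA, listed by the submitters as GCRMA without a version, a method that removes background by probe sequence and normalizes all chips jointly. By the study's account 32 arrays entered GC-RMA, and the 40 h array was discarded afterwards. It may therefore have shaped the deposited values of the other arrays. Values run from 2.22 to 37317. The number of arrays limits the precision. Per the labels, tissue was the fourth gland, preserved in RNAlater, with RNA from a column. The study's methods give frozen tissue and TriZol before the column, and which holds is unknown. Scan batches are not given in the sources used here.

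The 57 control probe sets were left out. Of the other 31042, the 21068 that reached 10 on each of the 31 arrays were kept and put on the log2 scale. Symbols came from the platform annotation; 31 of 31 member symbols matched the GRCr8 gene table by Entrez identifier. 15568 of the kept probe sets had 1 symbol, 353 several and 5147 none. A gene was read by its brightest probe set, judged by mean log2. For 4 members several passed, with an r between them from 0.50 to 0.89. For Method 1 the spline had order 2 and 8 basis functions, time was permuted with the study's own vector, and the false discovery rate was 0.25. limma fitted the day and the clock hour (centred near midday; slopes are given over 10 h). By rule, values per day are listed for members past a threshold, the 10 with the largest SD and Irf7, Irf9, Irf1 and Stat2; Eif2ak2 was added after its values were seen. The members, the lists of further interferon genes and of cell type markers, and the tests were chosen with earlier results of these data known.

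The scripts were tested on simulated data with 200 changed features among 21068 probe sets. In the simulation of day 3 against day 1, limma found 55.2% of features shifted by 0.5 on the log2 scale, 95.5% at a shift of 1 and 100% at 2, while 5.11% of its calls were false. In that of the clock hour the shares were 56.7%, 95.5% and 100%, and 6.15% of calls were false. Method 1 found 4% of simulated courses with a range of 2 residual SDs and 59% at 4, while 18.2% of its calls were false. Software was limma 3.58.1 under R 4.3.3, and Python 3.11.15 with pandas 2.3.3, scipy 1.17.1 and numpy 2.4.6. Alternatives covered the filter, the 40 h array, normalization, array weights, the probe set per gene, covariates, the spline and each rat left out in turn. Some items are not reported here.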

Additional observations from a re-analysis of the deposited data

Results flagged for a closer look

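Within the 4 days, the highest or lowest rat of a member was tested for a gap to its neighbour that is large relative to the range of the day, on log2 values. Of 120 pairs of member and day, 8 (6.67%) stood apart, and chance gives about 1 in 20. In Mx2 the rat of 41.6 h was far above the rest of day 2, with a gap of 0.753 of the range (176 against 60.5), and it is 1 of the rats in which the other Mx2 probe set is near the bottom of its range. In Cxcl10 the rat of 86.3 h stood above day 4 (0.641, 46.7 against 26.9), as it did in Parp14 (0.588, 398 against 294). The array of 86.3 h also holds the highest value for 12.4% of all probe sets, the largest share of any rat. In Tap1 the rat of 57 h stood above day 3 (0.527, 374 against 280.1). Low rats were found for Ifit2 at 38.3 h (0.652, 265 against 396), Ifi27 at 82.5 h (0.631, 5760 against 6751), Ifit3 at 7.5 h (0.549, 20.7 against 29.7) and Parp9 at 13 h (0.547, 751 against 901).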

How the results depend on the processing

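The count of members past a threshold was 0 in the main setting of all 10 tests, and it was 1 in 12 of 379 recomputed counts and 0 in the others. With array weights it was 1 for day 3 against day 2 (Ifi44) and 1 for day 3 against day 1 (Eif2ak2). The share of all probe sets that passed with array weights is not given here, so nothing is read from these counts. With quantile normalization Method 1 called 1 member (Irf1), beside 2016 of all probe sets. Without the rats of 57 and 65.6 h, a setting chosen after seeing the data, it also called 1 (Irf1), beside 949. Leaving out 1 rat at a time, the count ran from 0 to 1 for Method 1, for day 3 against day 2 and for day 3 against day 1, and was 0 throughout in the other 7 tests. The median r over pairs of members was 0.229 without the rats of 57 and 65.6 h and ran from 0.244 to 0.366 with 1 rat left out. The mean of day 3 minus that of day 1 was 0.19 in the main setting, 0.17 without the 3 members with the widest range and 0.04 without the rats of 57 and 65.6 h. The cause of these shifts was not tested. Method 1 with all 32 arrays was not run, since the study's permutation vector holds 31 entries. No paired analysis was possible because each rat is a separate animal and the labels give no replicate numbers. With 7 or 8 rats a day, changes of 0.5 on the log2 scale are recovered in 55.2% of cases as simulated. That share is for probe sets drawn from the whole array, whose median SD is 0.235. Smaller shifts over the cycle may have been missed, and in members with a larger SD, such as Mx1 (0.72), larger shifts as well.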
